A study of Mus musculus with 32 samples.

Results

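Ccr2, Itga4, Itgal, Ly6c2, Plac8, Lyz2 and Vcan, known as genes of blood monocytes and of the macrophages that arise from them, were described across mouse glioma libraries. They were taken by symbol, as 7 of the 23337 genes of the deposited count table. The choice was made with earlier results of these data known, so it is not independent of them. All 7 had a row in the table and all 7 passed the filter on low counts in each fit. The study asked how tumours and their macrophages differ when gliomas resist inhibition of CSF-1R, the receptor for the macrophage growth factor CSF-1.

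Gliomas were induced in XFM mice aged 5 to 6 weeks with DF-1 cells carrying PDGFB, a platelet-derived growth factor chain, placed intracranially. DF-1 is a line of chicken fibroblasts. Mice entered treatment at a tumour volume of 20 to 40 mm3 and were given BLZ945, a CSF-1R inhibitor, or vehicle each day, until symptoms or an age of 26 weeks. TAM libraries held cells sorted as CD11b-positive and Gr1-negative, which are macrophages and microglia. They came from 5 Rebound mice (49041, 49059, 49827, 49834 and 49849), 6 Endpoint mice (49823, 49825, 49830, 49831, 49843 and 49845) and 5 Vehicle mice (54359, 54363, 57098, 57682 and 64247). Values per mouse are given below in this order of the numbers. TC libraries held PDGFRA-positive cells, sorted as tumour cells, from the same mice, except that Rebound mouse 49692 replaced 49834. The labels call Endpoint tumours dormant, do not define Rebound further, and give BLZ945 as the agent even for Vehicle. The stage was therefore taken as the treatment. PDGFB drove the tumours of every group, so none of the groups is a normal brain.

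Circulating monocytes that express Ly6C leave the bone marrow through CCR2, the receptor for the chemokines CCL2, CCL7 and CCL12. They cross vessel walls with the integrins α4β1 (Itga4 with Itgb1) and αLβ2 (Itgal with Itgb2), which bind VCAM-1 and ICAM-1. In the brain, resident microglia arise from yolk sac precursors, and Itga4 is known as a marker that separates macrophages of blood origin from microglia, which lack it. Plac8, Lyz2 (lysozyme M) and Vcan (the proteoglycan versican) are genes of monocytes and macrophages. Several members are not specific to them: T cells and NK cells carry α4 and αL integrins, CCR2 and Ly6C, Lyz2 is also a gene of neutrophils, and versican is made by glial progenitors.

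In GRCm38 (mm10) with GENCODE M21, Ccr2 lies at chr9:124101950-124113557 on the plus strand, Itga4 at chr2:79255426-79333123 on the plus strand and Itgal at chr7:127296260-127335138 on the plus strand. Ly6c2 lies at chr15:75108158-75111970, Plac8 at chr5:100553725-100572245, Lyz2 at chr10:117277331-117282321 and Vcan at chr13:89655312-89742509, all on the minus strand and all protein coding. Counting can blur 2 of the members with a close copy. Of the 50-base windows of Lyz2 transcripts, 15.4% also occurred in Lyz1, its neighbour on chromosome 10, and of those of Ly6c2, 13.9% occurred in Ly6c1. Itga4 shared 7.32% of its windows with Cerkl and Ccr2 1.91% with other genes, while Itgal, Plac8 and Vcan shared none with another gene. The copies differ at 22 of 447 coding bases (Lyz2 and Lyz1) and at 9 of 396 (Ly6c2 and Ly6c1). The coding exon that best tells each pair apart is exon 1, printed here from the start codon on the coding strand, with capitals at the bases that differ between the copies (14 in the lysozyme pair, 6 in the Ly6c pair).
Lyz2, chr10:117282107-117282242, minus strand: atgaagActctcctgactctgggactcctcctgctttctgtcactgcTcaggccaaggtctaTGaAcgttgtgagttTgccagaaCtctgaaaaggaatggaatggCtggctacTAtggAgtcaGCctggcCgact
Lyz1, chr10:117292703-117292838, minus strand: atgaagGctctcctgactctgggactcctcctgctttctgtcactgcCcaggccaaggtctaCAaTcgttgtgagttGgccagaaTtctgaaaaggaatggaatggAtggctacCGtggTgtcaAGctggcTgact
Ly6c2, chr15:75111598-75111667, minus strand: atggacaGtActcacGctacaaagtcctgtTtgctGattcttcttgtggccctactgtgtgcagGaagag
Ly6c1, chr15:75048442-75048511, minus strand: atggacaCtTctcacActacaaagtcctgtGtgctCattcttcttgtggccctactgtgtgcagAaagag
The longest identical coding run was 118 bases between Lyz2 and Lyz1 and 188 bases between Ly6c2 and Ly6c1, both longer than a read of 50 bases.

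Total counts, in units of M (mega), ran from 15.4 to 19.6 M in TAM Rebound, 9.54 to 15.8 M in TAM Endpoint, 25.6 to 30.4 M in TAM Vehicle and 4.18 to 23 M in TC libraries. Every count in the Rebound and Endpoint libraries was even, while Vehicle libraries held odd and even counts, a difference in counting that goes with the treatment. The 8 macrophage and microglia markers (Csf1r, Itgam, Cd68, Aif1, Ptprc, Emr1, Fcgr3 and C1qa) were detected in every TAM library and summed to 10700 to 14700 CPM in Rebound, 14900 to 17100 in Endpoint and 17500 to 23600 in Vehicle. The labelled tumour cells were less uniform. The 8 markers of tumour cells and oligodendrocyte progenitors summed to 1480 to 5950 CPM in TC Rebound, 112 to 1450 in TC Endpoint and 1310 to 6370 in TC Vehicle. Choroid plexus markers (Ttr, Folr1, Kl and Clic6) summed to 0.608 to 1200 CPM in TC Rebound, 5750 to 144000 in TC Endpoint and 10.8 to 618 in TC Vehicle. The 12 T and NK cell markers (among them Cd3e, Cd8a, Cd4 and Nkg7) summed to 4670 to 5950 CPM in 4 of the 6 TC Endpoint libraries (49823, 49825, 49830 and 49831) and to 4140 CPM in TC Rebound 49827, against at most 39.2 CPM in the other 11 TC libraries. In TAM libraries the same sum was 139, 203 and 49.4 CPM in Rebound 49041, 49059 and 49849 and 10.2 and 11.2 CPM in Rebound 49827 and 49834. It was 11.4 to 33.1 CPM in TAM Endpoint and 5.23 to 13.5 CPM in TAM Vehicle. For the members, most results that rest on these 8 libraries are given with and without them. Values of other single genes are given only with them.

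Levels per kilobase of exon allow the members to be ranked within a population. In TAM Rebound, Lyz2 stood far above the rest with a mean of 2580 CPM per kilobase, followed by Plac8 at 34.9, Ccr2 at 33.8, Itgal at 17.6, Ly6c2 at 7.13, Itga4 at 4.25 and Vcan at 0.768. In TAM Endpoint the means per kilobase were 552 for Lyz2, 10.7 for Plac8, 4.87 for Itgal, 2.58 for Ccr2, 1.59 for Ly6c2, 1.48 for Itga4 and 0.115 for Vcan. In TAM Vehicle they were 1600 for Lyz2, 65.5 for Plac8, 32.5 for Ccr2, 14.0 for Itgal, 7.20 for Ly6c2, 2.51 for Itga4 and 0.276 for Vcan. Lyz2 varied by 1.37 times from lowest to highest mouse in Rebound, 2.32 in Endpoint and 2.47 in Vehicle, the least of the 7 in Rebound and Vehicle, while in Endpoint Itgal varied less (2.12). Ly6c2 varied by 10.8, 27.1 and 138 times in the same groups, so that apart from Lyz2 at the top and Vcan at the bottom the neighbours in these orders overlapped between mice. Vcan did not stand apart from Ly6c2, which fell to 0.230 CPM per kilobase in Endpoint and 0.146 in Vehicle. Vcan reached 0.482 and 0.519 there.

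Across the TAM libraries all 7 members had their lowest mean at Endpoint, and none passed the test between Rebound and Vehicle. The medians of Itga4 were nearly the same in Endpoint and Vehicle, at 18.7 and 18.8 CPM. In Endpoint mice 4 of the 7 members fell relative to Vehicle mice (Ccr2, Itgal, Plac8 and Lyz2) and none rose; over all genes tested 19.3% fell. In Rebound mice 4 of the 7 were higher than in Endpoint mice (Ccr2, Itgal, Lyz2 and Vcan) and none lower; over all genes tested 11.7% were higher. Between Rebound and Vehicle mice 0 of the 7 passed the threshold with edgeR, where 14.7% of all genes did in either direction. There 1 member, Lyz2, had an unadjusted p under 0.05, and DESeq2 called 1, again Lyz2. The median log2 fold change of the 7 was -1.54 for Endpoint against Vehicle, 2.15 for Rebound against Endpoint and 0.33 for Rebound against Vehicle, where the median over all genes was -0.03, 0.02 and 0.02. The contrasts share their groups, so their values are not independent of each other. In a fit of all 32 libraries, whose estimate of the spread includes the TC libraries, 1 member was called for Endpoint against Vehicle (Ccr2) and 2 for Rebound against Endpoint (Lyz2 and Vcan), and Lyz2 had -1.67 (adjusted p = 0.0562) in the first of these. Over all genes, calls in either direction under the alternatives numbered 3227 to 4880 for Endpoint against Vehicle (4390 in the main fit). For Rebound against Endpoint they numbered 592 to 2932 (2337 in the main fit). In these bulk samples, fewer cells of a type and less RNA per cell cannot be told apart. Markers of other cells also differed between the TAM groups. The 5 endothelial markers summed to 36.3 to 117 CPM in Rebound, 5.32 to 8.73 in Endpoint and 16.3 to 38 in Vehicle, and the 4 choroid plexus markers to 1.33 to 435, 55.1 to 143 and 1.71 to 4.2 CPM. Their part in the results was not tested.

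**Figure D1:**
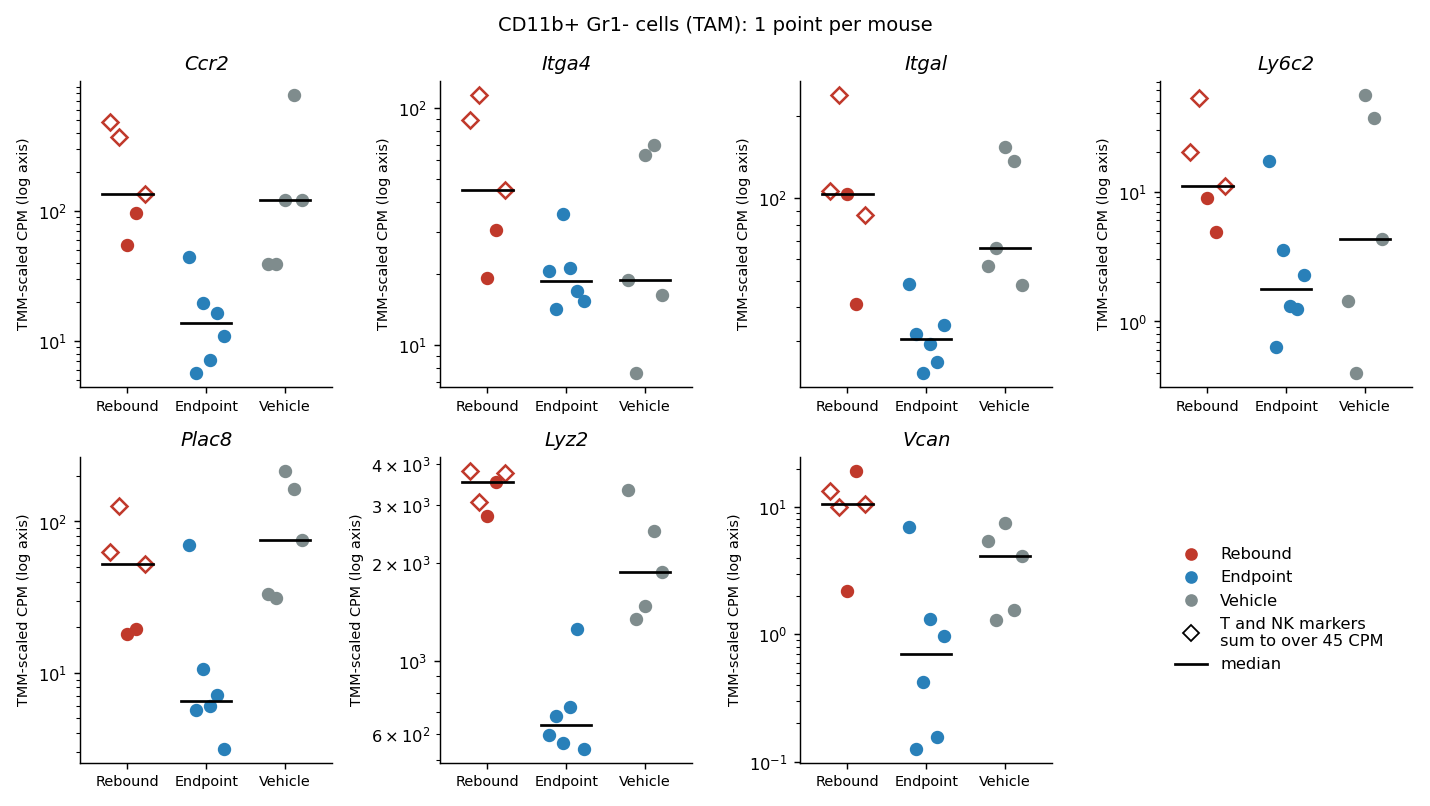
TMM-scaled CPM of the 7 members in TAM libraries on log axes, 1 point per mouse, for Rebound (n = 5), Endpoint (n = 6) and Vehicle (n = 5), with black lines at medians and open diamonds for the libraries whose T and NK markers sum to over 45 CPM. Lyz2 in Endpoint (541 to 1250 CPM) lies below Rebound and Vehicle without overlap, while Ly6c2 in Vehicle spreads from 0.400 to 55.4 CPM.

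The chemokine receptor gene Ccr2 showed the largest change of the 7. It stood at 484, 372, 54.6, 97.0 and 134 CPM in the Rebound mice and at 5.68 to 44.5 CPM, with a median of 13.8, in the Endpoint mice. Vehicle mice had 39.1, 39.4, 121, 777 and 121 CPM. Every Rebound mouse lay above every Endpoint mouse, and 5 of 6 Endpoint mice lay below every Vehicle mouse, 49823 being the exception. The log2 fold change was 3.71 ± 0.881 (SE) for Rebound against Endpoint (adjusted p = 0.00977) and -3.65 ± 0.879 for Endpoint against Vehicle (adjusted p = 0.0054). For Rebound against Vehicle it was 0.06 ± 0.847 (adjusted p = 0.973). Vehicle mouse 57682 carried much of the Vehicle level, and without it the Endpoint value was -2.19 (adjusted p = 0.0263). Without Rebound 49041, 49059 and 49849, the mice with T and NK markers, the Rebound against Endpoint value was 2.13 (adjusted p = 0.304).

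The 3 chemokines that bind CCR2 moved with it in the TAM libraries. Ccl2 averaged 156 CPM in Rebound, 9.61 in Endpoint and 166 in Vehicle, and Ccl12 averaged 763, 131 and 1050 CPM. Ccl7 had counts of 16 to 2230 in Rebound libraries, 0 to 4 in Endpoint libraries and 157 to 1794 in Vehicle libraries. All 3 fell in Endpoint mice relative to Vehicle, by 4.11 ± 0.803 on the log2 scale for Ccl2 (adjusted p = 0.00139), and all 3 were higher in Rebound than in Endpoint mice, by 4.02 ± 0.801 for Ccl2 (adjusted p = 0.00341).

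Of the 2 integrin α chains, Itgal changed and Itga4 did not pass the test. Itgal, the αL chain of LFA-1, stood at 107, 240, 104, 41.1 and 87.1 CPM in the Rebound mice, 22.9 to 48.6 CPM with a median of 30.6 in the Endpoint mice, and 56.3, 65.9, 154, 137 and 48.1 CPM in the Vehicle mice. Rebound and Vehicle overlapped, and 1 Endpoint mouse, 49823, reached into both. It was higher in Rebound than in Endpoint by 1.85 ± 0.385 on the log2 scale (adjusted p = 0.00338) and fell by 1.52 ± 0.382 in Endpoint relative to Vehicle (adjusted p = 0.00565). Without the Rebound mice that had T and NK markers the first value was 1.19 (adjusted p = 0.129).

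Its partner and ligand followed with smaller changes: Itgb2, the β2 chain, averaged 1440 CPM in Rebound, 985 in Endpoint and 2090 in Vehicle. Icam1, a ligand of LFA-1, averaged 269, 141 and 357 CPM. Both fell in Endpoint relative to Vehicle, by 1.08 ± 0.147 (adjusted p = 3.62e-05) and by 1.34 ± 0.176 (adjusted p = 2.77e-05). The other α chains that pair with β2 did not move alike. Itgam, the αM chain and the CD11b of the sort gate, fell in Endpoint by 1.77 ± 0.183 (adjusted p = 3.23e-06) and in Rebound by 0.88 ± 0.190 (adjusted p = 0.00592) relative to Vehicle. Itgad, the αD chain, fell in Endpoint relative to Vehicle (-1.38 ± 0.343, adjusted p = 0.0046) and was higher in Rebound than in Endpoint (1.66 ± 0.345, adjusted p = 0.00281). Itgax, the αX chain, was not called in Endpoint or Rebound against Vehicle and was higher in Rebound than in Endpoint by 1.43 ± 0.408 (adjusted p = 0.0225). Icam2, another LFA-1 ligand, was not called in any TAM contrast.

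Itga4 stood at 89.1, 113, 19.1, 30.4 and 45.2 CPM in the Rebound mice, 14.1 to 35.8 CPM with a median of 18.7 in the Endpoint mice and 18.8, 7.6, 63.2, 69.7 and 16.3 CPM in the Vehicle mice. The groups overlapped in all 3 comparisons. The log2 fold change was 1.53 ± 0.549 for Rebound against Endpoint (adjusted p = 0.0662), -0.77 ± 0.544 for Endpoint against Vehicle (adjusted p = 0.298) and 0.76 ± 0.570 for Rebound against Vehicle (adjusted p = 0.400). The first of these passed the threshold without Rebound 49827 (1.75, adjusted p = 0.0344), with DESeq2 (1.54, adjusted p = 0.0316) and when Rebound and Endpoint were fitted alone (1.52, adjusted p = 0.0253). Without the Rebound mice that had T and NK markers it was 0.27 (adjusted p = 0.879).

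The β chains that pair with α4 went apart. Itgb1 rose in Endpoint by 0.78 ± 0.149 (adjusted p = 0.000674) and in Rebound by 0.61 ± 0.154 (adjusted p = 0.0138) relative to Vehicle. Itgb7 averaged 41.4 CPM in Rebound, 2.25 in Endpoint and 16.9 in Vehicle, and was higher in Rebound than in Endpoint by 4.19 ± 0.539 (adjusted p = 0.000119). Vcam1, the vascular ligand of α4β1, averaged 402, 260 and 71.5 CPM in the sorted TAM and rose in both Rebound (2.49 ± 0.430, adjusted p = 0.00186) and Endpoint (1.86 ± 0.409, adjusted p = 0.00233) relative to Vehicle. Madcam1, the mucosal ligand of α4β7, was not called in any TAM contrast.

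Ly6c2 encodes the surface antigen Ly6C2 of inflammatory monocytes. Gr1 antibodies bind Ly6G and, depending on the clone, Ly6C, so a Gr1-negative gate bears on this gene. It stood at 20.1, 52.8, 8.94, 4.90 and 11 CPM in the Rebound mice, 0.631 to 17.1 CPM with a median of 1.79 in the Endpoint mice and 1.44, 0.400, 55.4, 37.1 and 4.33 CPM in the Vehicle mice. All 3 groups overlapped, and Vehicle mice alone spanned 138 times from lowest to highest. No contrast passed the test: the log2 fold change was 2.15 ± 1.12 for Rebound against Endpoint (adjusted p = 0.206), -2.16 ± 1.11 for Endpoint against Vehicle (adjusted p = 0.151) and -0.02 ± 1.12 for Rebound against Vehicle (adjusted p = 0.994). Without Endpoint 49823, whose 17.1 CPM stood above the 3.55 CPM of the next mouse, the Endpoint against Vehicle value was -3.44 (adjusted p = 0.0341). Without the Rebound mice that had T and NK markers the Rebound against Endpoint value was 0.66 (adjusted p = 0.878).

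Among the Ly6 relatives, Ly6a (Sca-1) fell in Endpoint by 2.67 ± 0.694 (adjusted p = 0.00823) and Ly6i by 1.94 ± 0.592 (adjusted p = 0.0171) relative to Vehicle, and both were higher in Rebound than in Endpoint, by 2.24 ± 0.687 and 2.29 ± 0.597 (adjusted p = 0.0346 and 0.0126). Ly6e fell in both Rebound (-0.67 ± 0.201, adjusted p = 0.0321) and Endpoint (-0.75 ± 0.191, adjusted p = 0.00545) relative to Vehicle. The near copy Ly6c1 averaged 1.51 CPM in Rebound, 0.340 in Endpoint and 0.290 in Vehicle, and its log2 fold changes did not pass the test (2.38 ± 1.11 for Rebound against Vehicle, adjusted p = 0.158).

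Plac8, a small cysteine-rich protein gene of monocytes and other blood cells, stood at 62.4, 126, 18.0, 19.3 and 52.0 CPM in the Rebound mice. Endpoint mice had 3.14 to 69.5 CPM with a median of 6.53, and Vehicle mice had 33.0, 31.4, 217, 165 and 75.8 CPM. Endpoint 49823, at 69.5 CPM, lay within the Vehicle range, and the other 5 Endpoint mice lay below every Vehicle mouse. Plac8 fell in Endpoint by 2.61 ± 0.848 on the log2 scale relative to Vehicle (adjusted p = 0.0279). It was not called for Rebound against Endpoint (1.70, adjusted p = 0.176) or for Rebound against Vehicle (-0.91 ± 0.857, adjusted p = 0.513), the lowest value of the 7 in that contrast.

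The calls for Plac8 turned on single libraries. Leaving out any of 6 libraries (Endpoint 49825, 49830, 49831 or 49843, or Vehicle 57098 or 57682) gave adjusted p of 0.0511 to 0.0761 for Endpoint against Vehicle. Leaving out Endpoint 49823 gave -4 (adjusted p = 0.000774) there and 3.10 (adjusted p = 0.00662) for Rebound against Endpoint. Without the Rebound mice that had T and NK markers Rebound against Endpoint gave 0.14 (adjusted p = 0.969).

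Lyz2, the lysozyme gene of macrophages and neutrophils, gave the clearest separation. It stood at 3824, 3077, 2783, 3531 and 3753 CPM in the Rebound mice, 541 to 1252 CPM with a median of 637 in the Endpoint mice and 3333, 1348, 1472, 2504 and 1869 CPM in the Vehicle mice. Endpoint did not overlap either other group, and 3 of the 5 Rebound mice lay above every Vehicle mouse. Lyz2 was higher in Rebound than in Endpoint by 2.23 ± 0.253 on the log2 scale (adjusted p = 3.22e-05) and fell in Endpoint by 1.54 ± 0.249 relative to Vehicle (adjusted p = 0.000169). For Rebound against Vehicle it was 0.69 ± 0.259 (unadjusted p = 0.0156, adjusted p = 0.0804), and without Vehicle 54359 it was 0.91 (adjusted p = 0.0255). Without the libraries that had T and NK markers the Rebound against Endpoint value was 2.13 (adjusted p = 0.00161), the 1 call among the members that was left there.

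Its copy Lyz1 averaged 5.86 CPM in Rebound, 0.673 in Endpoint and 4.59 in Vehicle, fell in Endpoint by 2.79 ± 0.579 (adjusted p = 0.00128) and was higher in Rebound than in Endpoint by 3.14 ± 0.585 (adjusted p = 0.00128). Some of its counts can be Lyz2 reads from the shared stretches shown above. The 9 neutrophil markers summed to 271 to 608 CPM in Rebound, 363 to 1200 in Endpoint and 292 to 550 in Vehicle. This sum need not track neutrophils: in Endpoint 49825 it was 407 CPM with S100a8, S100a9, Camp and Mmp8 at 0. The part of neutrophils in the Lyz2 values was not tested.

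Vcan had the lowest mean of the members in each TAM group. It stood at 13.5, 9.97, 2.20, 19.3 and 10.5 CPM in the Rebound mice, 0.126 to 6.97 CPM with a median of 0.700 in the Endpoint mice and 5.43, 1.29, 7.51, 1.56 and 4.16 CPM in the Vehicle mice. Counts were 32 to 300 in Rebound, 2 to 118 in Endpoint and 29 to 209 in Vehicle libraries. Vcan was higher in Rebound than in Endpoint by 2.72 ± 0.826 on the log2 scale (adjusted p = 0.0306). Without the Rebound mice that had T and NK markers the value was 2.68 and the call was lost (adjusted p = 0.193). It was not called for Endpoint against Vehicle (-1.24 ± 0.805, adjusted p = 0.25) or for Rebound against Vehicle (1.48 ± 0.834, adjusted p = 0.25). The 8 markers of tumour cells and oligodendrocyte progenitors, which make versican, also differed between the TAM groups: they summed to 25 to 248 CPM in Rebound, 3.02 to 19.3 in Endpoint and 20.3 to 47.6 in Vehicle. Rebound 49834 had the highest sum and the highest Vcan, and Rebound 49827 the lowest sum and the lowest Vcan of that group. Their part in the result was not tested.

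The Vcan calls were also fragile. Leaving out any of 7 libraries (Endpoint 49825, 49830, 49831 or 49845, or Rebound 49041, 49834 or 49849) gave adjusted p of 0.0503 to 0.0719 for Rebound against Endpoint. Without Endpoint 49823 the values were 4.21 (adjusted p = 0.00111) for Rebound against Endpoint and -2.74 (adjusted p = 0.00621) for Endpoint against Vehicle. Of the proteases that cut versican, Adamts1 fell in Endpoint by 1.24 ± 0.395 relative to Vehicle (adjusted p = 0.0215), while Adamts4 was higher in Rebound than in Endpoint by 2.14 ± 0.701 (adjusted p = 0.0411), and Adamts5 and Adamts9 were too low to test. The related proteoglycan gene Bcan, known from glia, rose in Rebound by 2.51 ± 0.613 (adjusted p = 0.0121) and in Endpoint by 2.18 ± 0.593 (adjusted p = 0.00885) relative to Vehicle. Its relative Ncan rose in Rebound relative to Vehicle (2.12 ± 0.415, adjusted p = 0.00337) and was higher in Rebound than in Endpoint (1.29 ± 0.383, adjusted p = 0.0257). Tlr2, a receptor that versican is known to engage on macrophages, fell in Endpoint by 1.14 ± 0.25 relative to Vehicle (adjusted p = 0.00189) and was higher in Rebound than in Endpoint by 1.31 ± 0.25 (adjusted p = 0.0015).

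**Figure D2:**
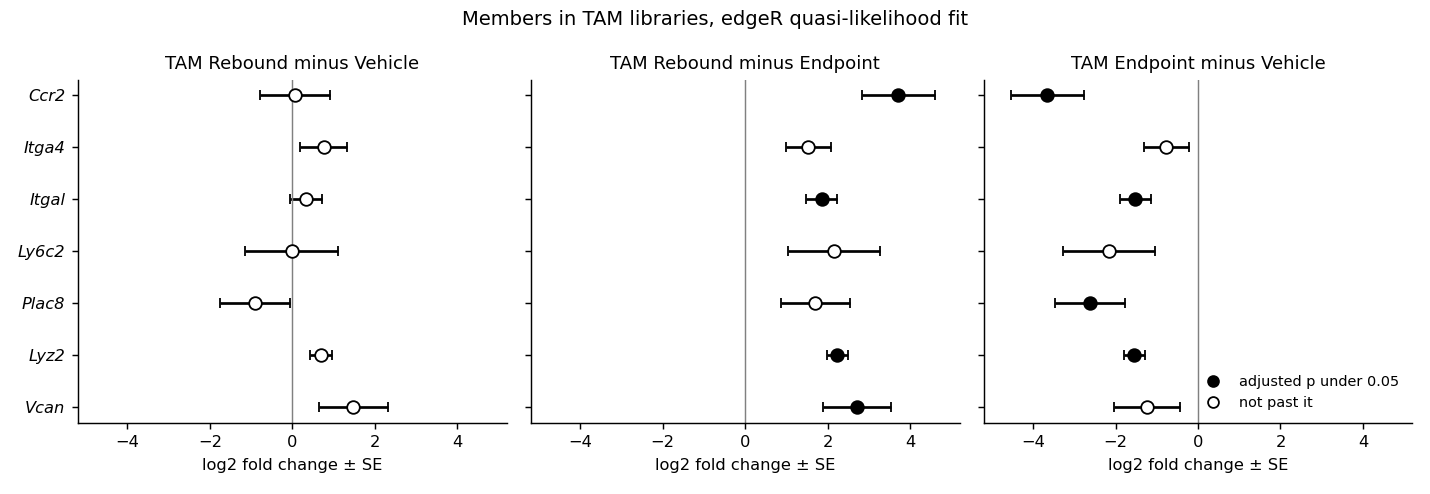
Log2 fold change with SE (bars) of the 7 members in the 3 TAM contrasts from the edgeR fit, filled where the adjusted p is under 0.05. The filled points are Ccr2, Itgal, Lyz2 and Vcan for Rebound minus Endpoint and Ccr2, Itgal, Plac8 and Lyz2 for Endpoint minus Vehicle, with none for Rebound minus Vehicle.

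A further 23 genes known from monocytes and their macrophages were tested in the same contrasts. In Endpoint mice 14 of the 23 fell relative to Vehicle, none rose and 9 were not called, where 19.3% of all genes fell, and the median log2 fold change was -2.27. The largest falls were those of Fn1 (fibronectin, -5.36 ± 0.867, adjusted p = 0.000361), Ccr1 (a chemokine receptor, -4.66 ± 0.842, adjusted p = 0.000797), Anxa2 (annexin A2, -4.27 ± 0.679, adjusted p = 0.000302) and Tgfbi (a secreted matrix protein, -3.66 ± 0.612, adjusted p = 0.000415). In Rebound mice 15 of the 23 were higher than in Endpoint mice, none lower and 8 not called, where 11.7% of all genes were higher, and the median was 2.59. Among the largest were Fn1 (5.24 ± 0.862, adjusted p = 0.00107), Ccr1 (4.69 ± 0.843, adjusted p = 0.00174) and Lgals3 (galectin-3, 3.92 ± 0.669, adjusted p = 0.00122). Between Rebound and Vehicle 0 of the 23 were called with edgeR, 3 had an unadjusted p under 0.05, DESeq2 called 1, and the median was 0.03. Without the Rebound libraries that had T and NK markers, 5 of the 23 were called for Rebound against Endpoint, all higher, with fewer Rebound mice left. Over all genes, calls in either direction for this contrast went from 2337 in the main fit to 592 at the lowest alternative. This list was drawn up with earlier results of these data known, so it is not independent of them.

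Of the ligands, partners and proteases of the members, 13 of 15 could be tested: 2 rose and 8 fell in Endpoint relative to Vehicle, 8 were higher and none lower in Rebound than in Endpoint, and 2 rose and 1 fell in Rebound relative to Vehicle. Of 12 paralogs tested, 2 rose and 7 fell in Endpoint and 2 rose and 3 fell in Rebound relative to Vehicle. Between Rebound and Endpoint, 7 paralogs were higher and 1 lower in Rebound. Over all 13315 genes tested, 1821 rose and 2569 fell in Endpoint relative to Vehicle. In Rebound 932 rose and 1029 fell relative to Vehicle, and 1552 were higher and 785 lower than in Endpoint. Itga9, the α9 integrin chain, went the other way. It rose in Endpoint by 2.25 ± 0.355 relative to Vehicle (adjusted p = 0.00013) and was lower in Rebound than in Endpoint (-1.66 ± 0.347, adjusted p = 0.00291). Ly6g had no row in the table.

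The 12 genes of resident microglia were tested likewise. In Rebound mice 7 fell relative to Vehicle and none rose, and in Endpoint mice 6 fell relative to Vehicle and none rose. Between Rebound and Endpoint 3 were lower in Rebound and none higher. Of all 13315 genes tested, 1029 fell in Rebound and 2569 in Endpoint relative to Vehicle, and 785 were lower in Rebound than in Endpoint. Slc2a5, the fructose transporter of microglia, averaged 92.2 CPM in Rebound, 218 in Endpoint and 911 in Vehicle, and was lower in Rebound than in Endpoint by -1.24 ± 0.270 on the log2 scale (adjusted p = 0.00376). Siglech averaged 290, 1100 and 793 CPM and was lower in Rebound than in Endpoint (-1.92 ± 0.230, adjusted p = 4.07e-05). P2ry12, the purinergic receptor of microglial processes, averaged 872, 1200 and 2940 CPM and fell in Rebound by 1.76 ± 0.314 relative to Vehicle (adjusted p = 0.00187). Tmem119, a microglial membrane protein gene, fell there by 1.47 ± 0.331 (adjusted p = 0.00746). In Endpoint the largest fall relative to Vehicle was that of Fcrls (-4.31 ± 0.967, adjusted p = 0.00351), followed by Slc2a5 and by P2ry13 (-2.04 ± 0.329, adjusted p = 0.000174). Sall1, a microglial transcription factor, was lower in Rebound than in Endpoint (-0.99 ± 0.272, adjusted p = 0.0168), the opposite direction to the members called there. In the fit of all 32 libraries 3 of the 12 fell in Rebound and 3 in Endpoint relative to Vehicle, and 0 were called between Rebound and Endpoint.

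**Figure D3:**
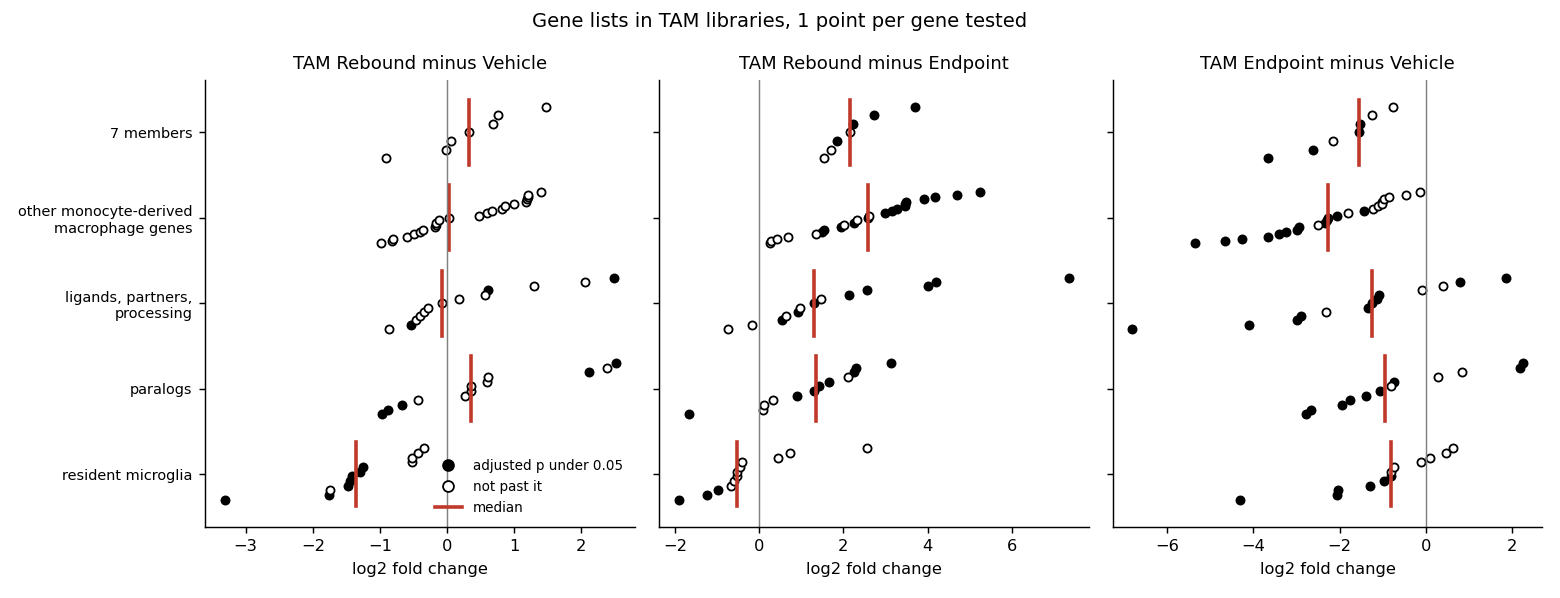
Log2 fold changes in TAM libraries of the 7 members and of 4 lists of related genes, 1 point per gene tested, filled where the adjusted p is under 0.05, with red lines at list medians (each panel has its own scale). The members and the other monocyte-derived macrophage genes have medians of 2.15 and 2.59 for Rebound minus Endpoint and of -1.54 and -2.27 for Endpoint minus Vehicle.

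Members correlated with each other over the 16 TAM libraries, as a description. The differences between stages were not removed, so they enter these values. Pearson's r on log2 CPM between pairs of members ran from 0.41 (Ly6c2 and Lyz2) to 0.86 (Ccr2 and Plac8, and Itga4 and Ly6c2). Within Rebound, mouse 49041 was first or second for all 7 members and 49827 was last for 5. Within Endpoint, 49823 was first for 5 of the 7 but had rank 4 of 6 for Lyz2. Within Vehicle, 57098 and 57682 were each first or second for 6, and 54363 was last for 5. Vehicle 54359 was first for Lyz2 and last for Ccr2. Endpoint 49823 also had the second highest neutrophil marker sum of its group, 1020 CPM, after 1200 CPM in 49830.

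The genes outside the 7 with the most similar pattern over the 16 libraries were Pla2g7 (r = 0.96), Gp49a and S100a6 (0.94 each) for Ccr2. For Itga4 they were Stk4 (0.92), Klf6 and Taok3 (0.90 each), and for Itgal Pfkp (0.92), Cd40 and Klf7 (0.91 each). For Ly6c2 they included AI607873 (0.91) and Zcchc6 (0.90), and for Plac8 they were Mndal, Ifi205 and Cd40 (0.92 each). Smpdl3a, 1300002K09Rik and Cpeb1 (0.93 each) were most like Lyz2, and Cyr61 (0.87), Nid1 and 3632451O06Rik (0.86 each) most like Vcan.

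The 3 Rebound TAM libraries with T and NK markers (49041, 49059 and 49849) held the 3 highest values of Ccr2, Itga4, Ly6c2 and Plac8 in their group. Dendritic cell markers were also highest there in 49041 and 49059, at 189 and 481 CPM, against 51.3 to 83.0 CPM in the other 3 Rebound mice. Relative to the marker sum, 6 members were higher in each of these TAM libraries than in any of the 5 TC libraries that held T and NK markers, and Vcan overlapped. Ccr2 amounted to 1.88 to 3.66 CPM per CPM of T and NK markers in the 3 TAM libraries and 0.0280 to 0.0420 in the 5 TC libraries. Itga4 amounted to 0.574 to 0.842 and 0.0437 to 0.0694, Itgal to 0.807 to 1.62 and 0.0416 to 0.0778, Ly6c2 to 0.152 to 0.268 and 0.0201 to 0.0630, and Plac8 to 0.472 to 0.969 and 0.00295 to 0.0144. Lyz2 amounted to 15.6 to 70.0 in the TAM and 0.00403 to 0.0279 in the TC libraries. In the TAM libraries under the 45 CPM limit the ratio of Ccr2 ran from 0.241 (Endpoint 49831) to 137 (Vehicle 57682). The ratio therefore cannot tell which cells held the members, and their source was not tested. With these 3 TAM libraries left out, the log2 fold changes for Rebound against Vehicle were -1.55 for Ccr2 and -2.49 for Plac8, -0.52 for Itga4, -0.36 for Itgal and 0.58 for Lyz2, none past the threshold, with 2 Rebound mice left. The Endpoint against Vehicle calls were the same 4 without them. No library of that contrast was left out, so this cannot test the part of T and NK cells in it.

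In TC libraries the highest values of 5 members (Ccr2, Itga4, Itgal, Ly6c2 and Plac8) lay in the libraries with T and NK markers. The 4 TC Endpoint libraries and the 1 TC Rebound library with T and NK markers had 151 to 288 CPM of Ccr2, while the other Rebound libraries had 0.108 to 0.472 CPM, the other 2 Endpoint libraries 8.48 and 1.5 CPM and Vehicle libraries 1.08 to 4.69 CPM. For Itgal the 5 libraries had 224 to 523 CPM, the other Rebound libraries 0.320 to 3.98 CPM, the other Endpoint libraries 23.9 and 5.57 CPM, and Vehicle 0.434 to 1.76 CPM. For Ly6c2 the 5 had 138 to 324 CPM and the other 11 at most 1.16 CPM. Ly6c2 passed the filter on low counts in the TC fit through these 5, so its tests between TC stages rest on libraries where it was high. In TC Rebound 49059 the Ly6c2 count was 0, where a limit of 3 counts is 0.194 CPM. All counts of that library were even, so this limit is too low if they are doubled.

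In the TC libraries 4 of the 7 members rose in Endpoint relative to Vehicle (Ccr2, Itga4, Itgal and Ly6c2), where 14.0% of all genes tested rose. The log2 fold changes were 5.57 ± 1.86 for Ccr2 (adjusted p = 0.0362), 4.89 ± 1.32 for Itga4 (adjusted p = 0.014), 8.02 ± 1.93 for Itgal (adjusted p = 0.00811) and 8.40 ± 2.47 for Ly6c2 (adjusted p = 0.0207). Leaving out any of 8 of the 11 libraries gave adjusted p of 0.0531 to 0.0799 for Ccr2. Without the libraries that had T and NK markers, 1 of the 4 was called, Itgal at 3.93 (adjusted p = 0.0314), with 2 Endpoint mice left, and the others were 0.74 (Ccr2), 0.27 (Itga4) and -0.37 (Ly6c2). Choroid plexus markers summed to 5750 to 144000 CPM in all 6 TC Endpoint libraries. Their part in the result was not tested.

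Lyz2, Plac8 and Vcan did not pass the test there. In TC Endpoint relative to Vehicle, Lyz2 had a log2 fold change of 0.78 ± 0.837 (adjusted p = 0.515), Plac8 of 2.19 ± 1.36 (adjusted p = 0.245) and Vcan of -1.49 ± 0.780 (adjusted p = 0.163). In the 5 libraries with T and NK markers Lyz2 was 27.6 to 111 CPM, within or near the 20.9 to 86.3 CPM of Vehicle, and Plac8 was 20.2 to 57.5 CPM, above the 1.18 to 7.11 CPM of Vehicle. The 8 macrophage and microglia markers summed to 20.3 to 1410 CPM in TC Rebound, 442 to 3950 in TC Endpoint and 104 to 796 in TC Vehicle, and their part in these values was not tested. In TC Endpoint 49843 the Plac8 count was 0, where a limit of 3 counts is 0.718 CPM, again too low if the even counts are doubled.

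Vcan was higher in the PDGFRA-positive cells than in TAM at all 3 stages, as tested below. It stood at 893, 464, 442, 233 and 484 CPM in the TC Rebound mice (49041, 49059, 49692, 49827 and 49849), 7.71 to 211 CPM with a median of 23.6 in the Endpoint mice and 126, 18.8, 145, 323 and 129 CPM in the Vehicle mice. All Rebound libraries lay above all Endpoint libraries, and Vcan was higher in Rebound than in Endpoint by 3.25 ± 0.821 (adjusted p = 0.0109), the 1 member called there, where 13.6% of all genes were higher. Pdgfra itself, the gene of the sort marker, was 553 to 3270 CPM of the total in TC Rebound, 54.8 to 496 in TC Endpoint and 426 to 4180 in TC Vehicle. Without TC Endpoint 49843 the Vcan value was 4.56 (adjusted p = 0.000214), and without the libraries that had T and NK markers it was 2.40 (adjusted p = 0.153). Without TC Rebound 49827 all 7 members were called for Rebound against Endpoint, Vcan higher and the other 6 lower, Ly6c2 by -10.07 (adjusted p = 0.000946). Over all genes, calls in either direction there numbered 3758 of 14985 with all libraries and 2541 to 5618 with 1 library left out.

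Between TC Rebound and TC Vehicle 0 of the 7 were called with edgeR, where 0.0734% of all genes were. With an unadjusted p under 0.05 there were 3 (Itga4, Itgal and Ly6c2), and DESeq2 called 2 (Itgal at 5.76, adjusted p = 0.00244, and Ly6c2 at 5.96, adjusted p = 0.0332). The edgeR log2 fold changes of Ccr2, Ly6c2 and Plac8 were 3.38, 5.86 and 1.36, and without TC Rebound 49827 they were -3.06, -1.69 and -2.01, none past the threshold.

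**Figure D4:**
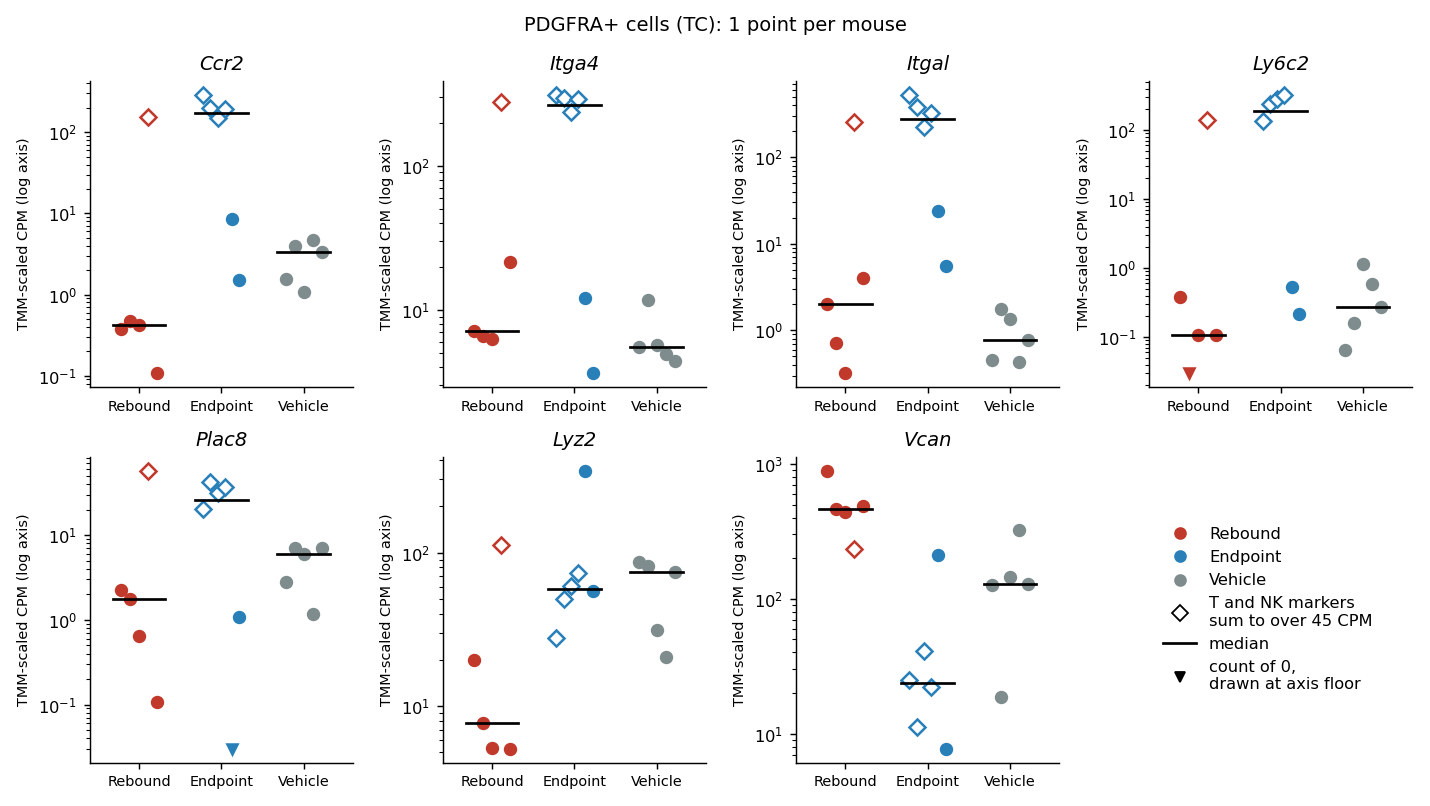
TMM-scaled CPM of the 7 members in TC libraries on log axes, 1 point per mouse, for Rebound (n = 5), Endpoint (n = 6) and Vehicle (n = 5), with black lines at medians, open diamonds for the libraries whose T and NK markers sum to over 45 CPM and triangles for counts of 0. The diamonds lie above the other points for Ccr2, Itga4, Itgal, Ly6c2 and Plac8 but not for Lyz2 or Vcan.

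The 2 sorted populations were compared in a fit over all 32 libraries. In Vehicle, 6 members were higher in TAM than in TC and 1, Vcan, was lower, where 54.8% of all genes differed in either direction. Lyz2 averaged 2690 CPM in TAM and 49.1 in TC (log2 fold change 5.78 ± 0.796, adjusted p = 5.39e-07) and Itgal 118 and 0.801 CPM (7.21 ± 1.42, adjusted p = 9.69e-05). Vcan averaged 5.13 CPM in TAM and 124 in TC (-4.59 ± 0.967, adjusted p = 0.000205). With the mouse as a block the value of Itga4 was 2.75 (adjusted p = 0.0510), against 3.06 ± 1.00 (adjusted p = 0.0108) without it.

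In Rebound, 2 members were higher in TAM than in TC (Ccr2, 3.48 ± 1.39, adjusted p = 0.0396, and Lyz2, 7.39 ± 0.857, adjusted p = 5.39e-08) and Vcan was lower (-4.96 ± 0.980, adjusted p = 0.000129), where 47.8% of all genes differed. Leaving out TC Rebound 49827 gave 7 calls, 6 higher in TAM and Vcan lower, as did leaving out all libraries with T and NK markers, and the fit with the mouse as a block gave 5. In that fit Itgal (5.31, adjusted p = 0.0144) and Plac8 (5.49, adjusted p = 0.0233) were called too. Over all genes, calls for this comparison numbered 7482 in the main fit and 5777 to 7924 under the alternatives. The Ccr2 call was lost (adjusted p of 0.0680 to 0.0852) without TAM Rebound 49041 or 49059, or without any TC Rebound library other than 49827.

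At Endpoint the order was turned for 3 of the members. Itga4 averaged 24.2 CPM in TAM and 158 in TC (-2.71 ± 0.897, adjusted p = 0.0129), Itgal 37.7 and 204 CPM (-2.44 ± 1.03, adjusted p = 0.0478) and Ly6c2 5.2 and 136 CPM (-4.70 ± 1.62, adjusted p = 0.0165). The Itgal call was lost without any 1 of 10 of the 12 libraries (adjusted p of 0.0568 to 0.101; not TC Endpoint 49843 or 49845). Vcan was lower (-4.41 ± 0.894, adjusted p = 0.000174) and Lyz2 higher in TAM (3.35 ± 0.648, adjusted p = 0.000102), where 51.1% of all genes differed. Without the libraries that had T and NK markers, the values of Itga4, Itgal and Ly6c2 were 1.93 (adjusted p = 0.0448), 1.68 (adjusted p = 0.0696) and 4.21 (adjusted p = 0.0794), all higher in TAM, with 2 TC mice left. With the mouse as a block 2 calls were made, Lyz2 (3.82) and Vcan (-4.34), and Itga4, Itgal and Ly6c2 had adjusted p of 0.179, 0.190 and 0.106.

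The stage contrasts were also compared between the populations, as the TAM log2 fold change minus the TC one. For Endpoint against Vehicle, the TAM value was lower than the TC value for 6 of the 7 members, all but Vcan, where 25.7% of all genes differed. The difference was -9.32 ± 2.01 for Ccr2 (adjusted p = 0.00141), -9.64 ± 1.73 for Itgal (adjusted p = 0.000252) and -2.43 ± 0.891 for Lyz2 (adjusted p = 0.0435). Without the libraries that had T and NK markers 3 were called, Ccr2 (-4.40, adjusted p = 0.0161), Itgal (-5.54, adjusted p = 0.000204) and Lyz2 (-3.40, adjusted p = 0.00282), and Itga4, Ly6c2 and Plac8 were -1.14, -1.77 and 0.08. With the mouse as a block the adjusted p was 0.0578 for Lyz2 and 0.0706 for Plac8, both past the threshold without it. For Lyz2, leaving out 13 of the 22 libraries in turn gave adjusted p of 0.0512 to 0.197, and without TC Endpoint 49843 the difference was -1.35.

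For Rebound against Endpoint, the TAM value was higher than the TC value for 3 members, Ccr2 (5.97 ± 1.85, adjusted p = 0.0225), Itgal (4.16, adjusted p = 0.0479) and Lyz2 (4.04 ± 0.913, adjusted p = 0.00277), where 20.6% of all genes differed. The Itgal call was lost without any 1 of 18 of the 22 libraries (adjusted p of 0.0545 to 0.0939), and without TC Rebound 49827 the differences of Ccr2 and Itgal were 12.38 and 9.02. For Rebound against Vehicle 0 of the 7 were called with edgeR, 2 had an unadjusted p under 0.05 (Itgal and Ly6c2) and DESeq2 called 1 (Itgal at -5.38, adjusted p = 0.0189), where 0.517% of all genes were called. Without TC Rebound 49827 the difference of Lyz2 passed the threshold there (3.23, adjusted p = 0.011).

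**Figure D5:**
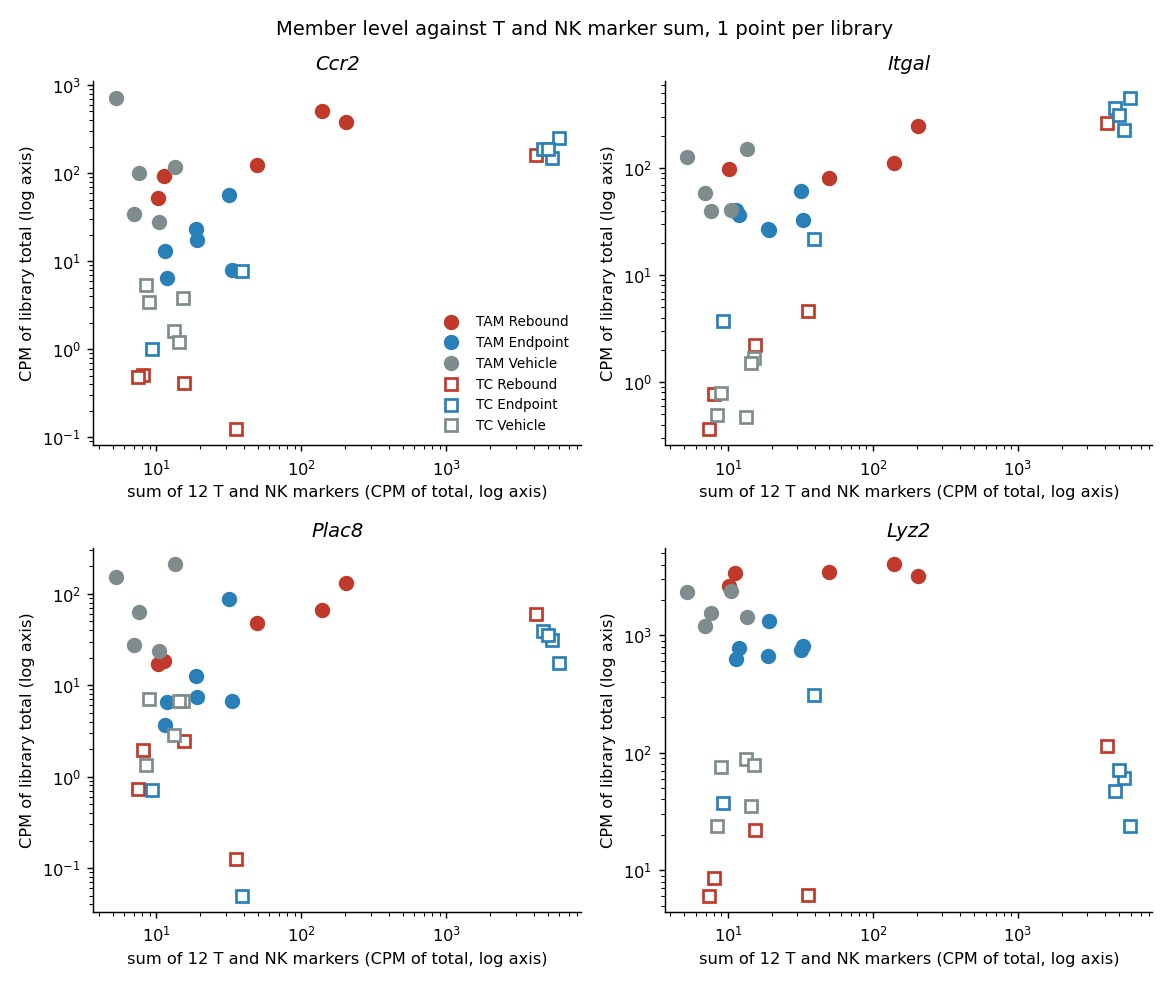
CPM of the library total for Ccr2, Itgal, Plac8 and Lyz2 against the summed CPM of 12 T and NK cell markers, both on log axes, 1 point per library, with filled circles for TAM and open squares for TC (the 1 count of 0, Plac8 in TC Endpoint, is drawn at the bottom of its panel). The 5 TC libraries at sums of 4140 to 5950 CPM stand beside TAM libraries for Ccr2 and far below them for Lyz2, at 24.0 to 115 CPM. For Itgal, at 224 to 454 CPM, they stand near or above the highest TAM value of 246 CPM.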

How the data were processed

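RNA-seq libraries from sorted TAM and TC were analysed from the deposited table of raw counts per gene, 23337 genes by 32 libraries. Per the submitters' processing notes, the authors used STAR 2.3.0e and SAMtools with mm10; which program counted reads, and on which annotation, is not given in the sources used here. Per the labels' protocols, the libraries came from a SMART-Seq kit and were read in pairs of 50 bases, with no mention of strand. Tests used edgeR 4.0.16 in R 4.3.3 (filterByExpr, TMM scaling, robust quasi-likelihood F test, two-sided), fitted over all genes passing the filter: 13315 in the TAM fit of 16 libraries, 14985 in the TC fit and 15668 in the fit of all 32. P-values were adjusted by Benjamini-Hochberg over all genes of the fit, and a gene was called under 0.05. The SE is the log2 fold change divided by the square root of F. CPM are TMM-scaled within a fit unless given as of the library total, as marker sums are. Likeness used log2 CPM with a prior count of 2, naming the 3 genes with the highest r. The scripts were tested on simulated data.

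The members and the gene lists were chosen with earlier results of these data known. Named were all 7 members, the genes most like each, up to 4 called genes per list and TAM contrast with the largest absolute log2 fold change, and the paralogs, ligands and partners described beside a member. Values of some genes that this rule names are not reported here; counts over the lists include them. Each library is 1 mouse, and no 2 libraries agreed within counting noise. TAM and TC libraries shared the animal in 15 of 17 mice, which pairs them, and deviations of the paired libraries from their group means correlated with a median r of 0.07 (0.01 to 0.34). The mouse was used as a block in an alternative. Other alternatives were the fit of all 32 libraries, only the 2 stages compared, DESeq2 1.42.0 and its size factors, no filter, leaving out each library, halving the BLZ945 counts (all even) and, chosen after seeing the data, leaving out libraries whose T and NK markers summed to over 45 CPM. Halving bears on precision, since doubled counts look more certain than they are. A count of 0 was given the limit of 3 counts, which covers counting error only. This limit is too low for the BLZ945 libraries if their even counts are doubled.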

Additional observations from a re-analysis of the deposited data

Results flagged for a closer look

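In groups of 5 or 6 libraries the gap of a value to the nearest other was taken as a share of the group's range. A value was marked where this share passed Dixon's limit. For normally distributed values chance marks about 1 in 20 groups, a rate that CPM on their plain scale need not keep. Here 16 of 42 were marked, each at the highest value of its group and often in the same library. Endpoint mouse 49823 was highest of its TAM group for Plac8 (share 0.887, 69.5 CPM), Vcan (0.827, 6.97 CPM), Ly6c2 (0.823, 17.1 CPM) and Ccr2 (0.642, 44.5 CPM). Endpoint 49830 was highest for Itga4 (0.676, 35.8 CPM), and Endpoint 49843 for Lyz2 (0.739, 1250 CPM). In TAM Vehicle, 57682 stood apart for Ccr2 (0.888, 777 CPM).

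In TC Rebound, 49827 stood apart for Ccr2 (0.998, 153 CPM), Ly6c2 (0.997, 142 CPM), Itgal (0.986, 255 CPM), Plac8 (0.962, 57.5 CPM), Itga4 (0.944, 277 CPM) and Lyz2 (0.862, 111 CPM), and it is the TC Rebound library with 4140 CPM of T and NK markers. TC Endpoint 49843 stood apart for Lyz2 (0.853, 341 CPM) and Vcan (0.837, 211 CPM). In TC Vehicle, 54363 was highest for Itga4 (0.831, 11.8 CPM).

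Of 21 tests of a stage contrast between the populations (TAM minus TC), 9 passed the threshold. For Endpoint against Vehicle the differences in log2 fold change were -9.32 for Ccr2, -5.78 for Itga4, -9.64 for Itgal, -10.64 for Ly6c2, -4.89 for Plac8 and -2.43 for Lyz2. For Rebound against Endpoint they were 5.97 for Ccr2, 4.16 for Itgal and 4.04 for Lyz2.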

How the results depend on the processing

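Over the 84 member results (7 members in 12 contrasts) and 1665 alternatives, 1462 kept their direction and their side of the threshold, 95 lost the call, 45 gained it and 63 changed direction. Direction held throughout for 56 results. The main dependence was on the libraries with T and NK markers, a setting chosen after seeing the data. It also left fewer mice in TAM Rebound, TC Endpoint and TC Rebound. Over all genes, calls for TAM Rebound against Endpoint numbered 2337, with 1624 to 2556 when 1 library was left out and 592 at the lowest alternative. Without the libraries that had T and NK markers the calls among the 7 numbered 1 for TAM Rebound against Endpoint, 1 for TC Endpoint against Vehicle, 2 for TC Rebound against Endpoint and 7 for TAM against TC in Rebound, and in the differences between populations 3 for Endpoint against Vehicle and 1 for Rebound against Vehicle. Values that changed direction there were -1.55, -0.52 and -0.36 for Ccr2, Itga4 and Itgal (TAM Rebound against Vehicle), -0.37 and -3.01 for Ly6c2 and Plac8 (TC Endpoint against Vehicle), -3.06, -1.59 and -2.01 for Ccr2, Ly6c2 and Plac8 (TC Rebound against Vehicle), and 0.41 and 1.00 for Itga4 and Plac8 (TC Rebound against Endpoint). For TAM against TC in Endpoint they were 2.44, 1.93, 1.68 and 4.21 for Ccr2, Itga4, Itgal and Ly6c2. For the differences between populations they were 0.08 and -0.85 for Plac8 and Vcan (Endpoint against Vehicle), 1.43 and 0.03 for Ccr2 and Ly6c2 (Rebound against Vehicle), and -0.16, -0.65 and 0.23 for Itga4, Plac8 and Vcan (Rebound against Endpoint).

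The fit of all 32 libraries called 1 for TAM Endpoint against Vehicle, 2 for TAM Rebound against Endpoint, 1 for TC Rebound against Vehicle and 2 for TC Rebound against Endpoint, and gave -0.02 for Ccr2 in TAM Rebound against Vehicle. DESeq2 called 1 for TAM Rebound against Vehicle, 2 for TC Rebound against Vehicle, 2 for TC Rebound against Endpoint and 1 for the population difference of Rebound against Vehicle. Ly6c2 in TAM Rebound against Vehicle, -0.02, became 0.01 with the BLZ945 counts halved or with the 2 stages fitted alone, and 0.03 with DESeq2 size factors or DESeq2. With the mouse as a replicate block, the paired fit called 2 for TAM against TC in Endpoint and 5 in Rebound, and turned the population difference of Rebound against Vehicle to 2.83, 0.32 and 0.68 for Ccr2, Ly6c2 and Plac8. Calls other than those named here and in the report held under the block. Halving and the filter changed no other direction, and without a filter the calls of Plac8 (TAM Endpoint against Vehicle, adjusted p = 0.0574) and Vcan (TAM Rebound against Endpoint, adjusted p = 0.0673) were among 7 lost.

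Leaving out 1 library at a time, the count of calls was 3 to 6, 0 to 1 and 3 to 5 in TAM and 3 to 5, 0 to 0 and 1 to 7 in TC (Endpoint against Vehicle, Rebound against Vehicle, Rebound against Endpoint). It was 2 to 7, 4 to 5 and 7 to 7 for TAM against TC in Rebound, Endpoint and Vehicle, and 5 to 6, 0 to 1 and 2 to 6 for the population differences. Ranges that crossed 0 were Ccr2 -0.42 to 1.52, Itgal -0.12 to 0.59, Ly6c2 -0.82 to 0.84 (TAM Rebound against Vehicle), Lyz2 -0.14 to 0.98 (TC Endpoint against Vehicle), Ccr2 -3.06 to 3.7, Ly6c2 -1.69 to 6.55, Plac8 -2.01 to 1.68 (TC Rebound against Vehicle), Plac8 -1.26 to 0.45 and Ly6c2 -0.77 to 7.55 (TAM against TC in Endpoint and in Rebound). For the population differences they were Vcan -1.35 to 1.6 (Endpoint against Vehicle), Ccr2 -3.83 to 3.06, Itga4 -2.97 to 0.01, Ly6c2 -6.71 to 1.62, Plac8 -2.87 to 1.04, Vcan -0.88 to 0.01 (Rebound against Vehicle) and Vcan -1.95 to 0.99 (Rebound against Endpoint). The cause of these changes was not tested. Over all genes, the calls for TC Rebound against Vehicle numbered 11 and between 0 and 670 under the alternatives, and those for TAM Rebound against Vehicle were 1961, with 525 without the libraries that had T and NK markers. Low counts limit some values: the smallest count was 2 for Vcan and 10 for Ly6c2 in TAM Endpoint, and 0 for Ly6c2 in TC Rebound and for Plac8 in TC Endpoint.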
